A study of Mus musculus with 16 samples.

Results

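miR-22 is a microRNA (miRNA), a short RNA that guides Argonaute proteins to messenger RNAs and lowers their output. Its hairpin precursor is cut into a 3p arm, miR-22-3p, and a 5p arm, miR-22-5p. The members described here are these 2 mature miRNAs, mmu-miR-22-3p and mmu-miR-22-5p, of 1167 in the count table. They were matched by name, and their reads were summed over all classes of read ends. They were chosen by the mean level over all libraries, in which miR-22-3p is the highest, so its rank is a description and was not tested. miR-22-3p ranked first by mean and miR-22-5p ranked 160th.

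The cells were 3T9 fibroblasts, an immortalised line grown from mouse embryos. The compared groups were cells given complete medium with 10% fetal bovine serum for 1, 2, 4, 6, 8, 10 or 12 h, and cells at 0 h. All of them, the 0 h cells included, had first been made quiescent by 72 h without serum, and no cells in steady growth were among the 16 libraries. At every one of the 8 times there were 2 libraries, which the design text calls separate experiments on this 1 line, and a further time point named in the design text was not analysed here. The libraries were made with the Illumina TruSeq small RNA kit from 1000 ng of total RNA.

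Libraries held 5852087 to 7783249 miRNA reads. In the column headers all libraries of replicate 1 share one prefix and all of replicate 2 another. What the prefixes stand for is not stated, so a difference between the replicate numbers may lie in the experiment or in the handling of the libraries, which cannot be told apart. The summed level of 5 mesenchymal miRNAs (miR-143-3p, miR-145a-5p, miR-199a-3p, miR-214-3p and miR-21a-5p) was 177783 to 253253 CPM, which are reads put on one common library size. Markers of other cell types were low, with sums of 1.97 to 4.03 CPM for blood, 2.33 to 8.04 for epithelium, 1.03 to 2.56 for muscle and 0 to 0.664 for pluripotent cells. The neural list summed to 182 to 407 CPM and the liver list to 621 to 786 CPM, nearly all from miR-128-3p and miR-192-5p, while the defining markers miR-124-3p and miR-122-5p had no read and 10 reads in all. The 4 epithelial sums late in serum (10 and 12 h) were 3.50 to 5.96 CPM, against 2.33 to 2.85 CPM at 0 and 1 h, and their part in the results was not tested.

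miR-22-3p is the arm that is usually loaded into Argonaute, and it is highly conserved among vertebrates. In human fibroblasts it has been described as promoting senescence. miR-22-5p is cut from the same precursor and usually decays as the passenger strand. Their sequences are shown because the base at each end decides how a read is classed below, and because the seed (bases 2 to 8, in capitals) sets which messenger RNAs a miRNA pairs with.
miR-22-3p: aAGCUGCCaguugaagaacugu
miR-22-5p: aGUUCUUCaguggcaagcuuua
Neither seed was shared with any other of 1679 mature mouse miRNA names in RefSeq (GRCm38.p6). The hairpin is on the plus strand at chr11:75463716-75463810. It lies in exon 2 of the long non-coding gene Mir22hg, and in exon 2 of a transcript of the protein-coding gene Tlcd2, which overlaps it on the same strand. The hairpin is printed with both arms in capitals, to show the bases that flank each arm.
mir-22 hairpin: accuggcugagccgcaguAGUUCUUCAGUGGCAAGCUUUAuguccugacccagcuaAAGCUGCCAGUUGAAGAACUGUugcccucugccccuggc
The 3p arm spans chr11:75463772-75463793 and is followed by UGC in the hairpin. A read that runs on into U therefore counts as templated, while a read that ends in an added A does not. A U added after cutting would count as templated too, so it cannot be told apart from a longer cut. The base before the 3p arm is A.

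miR-22-3p was higher late in the serum response than in quiescent cells. Its levels, in CPM on totals scaled by TMM (edgeR's trimmed mean method), were 135082 and 124549 at 0 h, in replicates 1 and 2. They were 127219 and 118100 at 1 h, then 135753 and 121251 at 2 h. From 4 h on both libraries of each time lay above every library of 0, 1 and 2 h, which was so for 4.45% of tested miRNAs (6.24% in either direction). The 4 h libraries stood at 147946 and 153734, those of 6 h at 152153 and 153812, and those of 8 h at 155629 and 155979. The highest levels were those of 10 h, with 166068 and 170421, and of 12 h, with 170738 and 158117. In the order of means, 10 h came first, then 12, 8, 6, 4, 0, 2 and 1 h. The values of 10 and 12 h overlapped, as did those of 6 and 4 h and those of 0, 2 and 1 h, while the other neighbours in that order did not.

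At 12 h miR-22-3p averaged 164428 ± 8925 CPM, against 129816 ± 7448 CPM at 0 h (SD, n = 2 each). The log2 difference of 0.34 ± 0.08 (SE) was past the threshold (adjusted p = 0.00813, edgeR's quasi-likelihood test, Benjamini-Hochberg adjustment over 449 miRNAs), in a comparison where 14.3% of all tested miRNAs were called and 8.24% were called higher. The 12 h minus 0 h difference was 0.338 within replicate 1 and 0.344 within replicate 2. miR-22-3p had also risen at 10 h, by 0.37 ± 0.08 (adjusted p = 0.00614; 11.8% of miRNAs called), and at 8 h, by 0.26 ± 0.08 (adjusted p = 0.0486; 9.58% called). The differences from 0 h were -0.08 ± 0.08 at 1 h (adjusted p = 0.994; 0.445% called), -0.01 ± 0.08 at 2 h (0.974; 2.45% called), 0.22 ± 0.08 at 4 h (0.121; 7.57% called) and 0.24 ± 0.08 at 6 h (0.0848; 7.8% called), and none of these was called. With the replicate number as a block the 6 h difference was called (0.24, adjusted p = 0.0376; 17.1% called). At 12 h the blocked difference was 0.34 (adjusted p = 0.00297; 24.1% called). All 7 comparisons share the same 0 h libraries.

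Over the whole course miR-22-3p changed (adjusted p = 0.00371, edgeR's joint test of the 7 later times; 13.8% of miRNAs called). Its slope was 0.037 ± 0.005 log2 units per hour of serum (adjusted p = 2.19e-05), a test in which 25.2% of miRNAs were called and 12% were called higher. Within replicate 1 the slope was 0.035 per hour (adjusted p = 8.05e-05; 19.4% called), and within replicate 2 it was 0.044 (adjusted p = 0.0124; 13.4% called). From the lowest library (1 h replicate 2) to the highest (12 h replicate 1), the level spanned a factor of 1.45. Counting error on a library's miR-22-3p reads (803360 to 1182052) was 0.0920% to 0.112%.

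The size of these changes depends on the scaling of the libraries. When library totals were used without TMM factors, the 12 h difference was 0.18 (adjusted p = 0.133; 15.1% of miRNAs called), the 10 h difference 0.24 (0.0666) and the 8 h difference 0.13 (0.326), and none was called. The slope stayed called at 0.024 per hour (adjusted p = 0.00299; 33% called). This scaling moved the median of all 449 miRNAs at 12 h to -0.15, against 0.00 with TMM (0.0047), and miR-22-3p lay 0.336 above the median under both. Without 0 h replicate 2 the calls at 12 h (0.28, adjusted p = 0.116) and 10 h (0.32, adjusted p = 0.0755) were lost, and without 12 h replicate 1 that at 12 h was lost (0.30, adjusted p = 0.0532). The 8 h call was lost in 7 of 16 fits that left out 1 library (0.21 to 0.36). A share of sequenced miRNAs does not tell a gain of miR-22-3p apart from a loss of other miRNAs, nor fewer cells from less RNA per cell.

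miR-22-5p was present at much lower levels and was not called at any time. Its TMM-scaled levels were 57.9 and 64.8 CPM at 0 h, 55.5 and 83.5 at 1 h, 59.0 and 57.8 at 2 h, then 57.6 and 60.6 at 4 h. They were 73.2 and 64.9 CPM at 6 h, 57.9 and 59.8 at 8 h, 62.0 and 62.4 at 10 h, then 63.2 and 72.5 at 12 h. Both the lowest and the highest value came from 1 h libraries, and the libraries of 12 h overlapped those of 0 h, while 61.2% of tested miRNAs had no such overlap. The arm averaged 67.9 ± 6.54 CPM at 12 h, against 61.4 ± 4.88 CPM at 0 h (SD, n = 2 each), a log2 difference of 0.14 ± 0.19 (SE; adjusted p = 0.661, edgeR). The unadjusted p was 0.353 or higher at each of the 7 later times. Neither the joint test of all times (adjusted p = 0.939) nor the slope (0.004 ± 0.011 per hour, adjusted p = 0.837) passed. Each library held 353 to 570 reads of this arm, which gives a counting error of 4.19% to 5.32%.

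**Figure D1:**
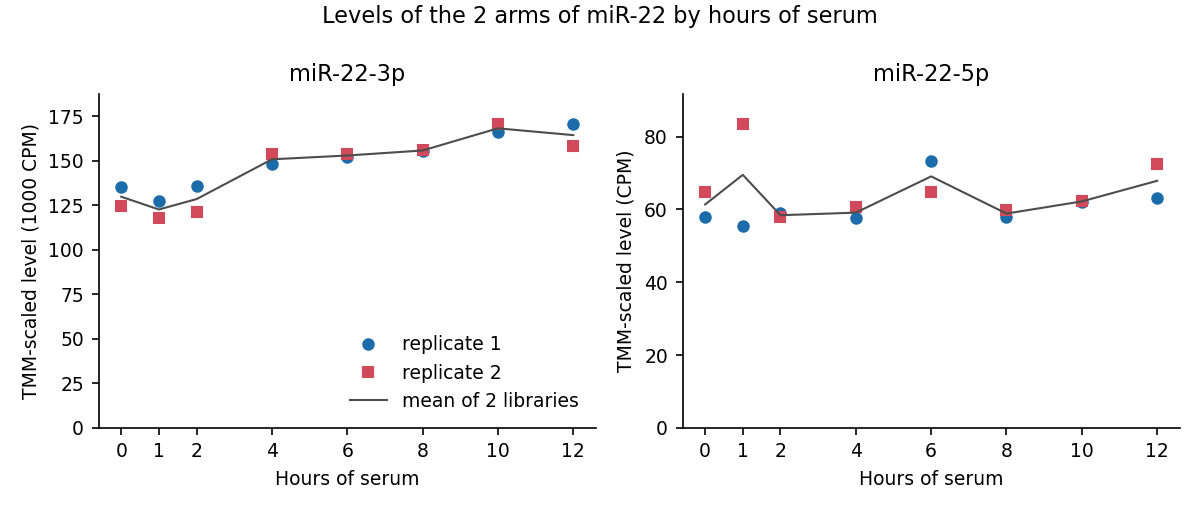
TMM-scaled levels of miR-22-3p (left, in 1000 CPM) and miR-22-5p (right, CPM) against hours of serum. Points are single libraries by replicate number and the line joins the means of 2 libraries; every miR-22-3p library from 4 h on lies above every library of 0, 1 and 2 h, while miR-22-5p shows no such separation.

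The arms differed by more than 3 orders of magnitude in reads. Over all libraries miR-22-3p had 15930162 reads and miR-22-5p had 6891. The 3p to 5p ratio ran from 1415 in 1 h replicate 2 to 2730 in 10 h replicate 2, and its mean on the log2 scale was 11.18. Of 124 hairpins with both arms tested, only miR-182, miR-186 and miR-191 had a more unequal pair of arms, and the median hairpin had an absolute log2 ratio of 3.49. These are descriptions, since the high level of the 3p arm was the reason for the choice.

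The mean miR-22-5p share of miR-22 reads was lowest at 10 h, though the libraries of 10 h overlapped those of 8 h and 12 h. The 2 libraries of each time had shares of 0.0429% and 0.0520% at 0 h, 0.0436% and 0.0706% at 1 h, 0.0434% and 0.0477% at 2 h, then 0.0389% and 0.0394% at 4 h. For 6 h the shares were 0.0481% and 0.0422%, for 8 h 0.0372% and 0.0383%, for 10 h 0.0373% and 0.0366%, and for 12 h 0.0370% and 0.0458%. The 1 h library of replicate 2 stood above all others, with a 95% Wilson interval of 0.0651% to 0.0767%, which covers counting error only.

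The limma tests of the arm ratio did not pass. Over all times the adjusted p was 0.613 (limma; 10.5% of hairpins called). Between 12 h and 0 h the log2 ratio of 3p to 5p differed by 0.20 ± 0.24 (SE; adjusted p = 0.667, limma; 13.7% of hairpins called). The slope was 0.032 ± 0.014 per hour (adjusted p = 0.108; 18.5% called), and it was 0.020 within replicate 1 (adjusted p = 0.389) and 0.044 within replicate 2 (adjusted p = 0.293). In the 4 libraries of 10 and 12 h the 5p share averaged 0.0392% ± 0.0044, against 0.0523% ± 0.0129 in the 4 libraries of 0 and 1 h (SD). These groups overlapped, where 29.8% of hairpins had no overlap, and the exact 2-sided permutation test gave p = 0.0857 (0.129 adjusted over the 3 values tested this way). With 8 and 10 h taken as late, an alternative choice, the difference was -0.0149 points and passed (adjusted p = 0.0429, exact permutation test). The miR-22-3p share of library reads had the same adjusted p in that choice. A value alone at the smallest p of the exact permutation test (0.0286) adjusts to 0.0857 over 3 values. The 5p share thus passed only because both shares stood at that smallest p. Labels were permuted across the replicate numbers. Within them the smallest p for 4 against 4 libraries was 0.0556, so no such contrast could pass. The limma tests of the ratio do not show that the arms moved differently.

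**Figure D2:**
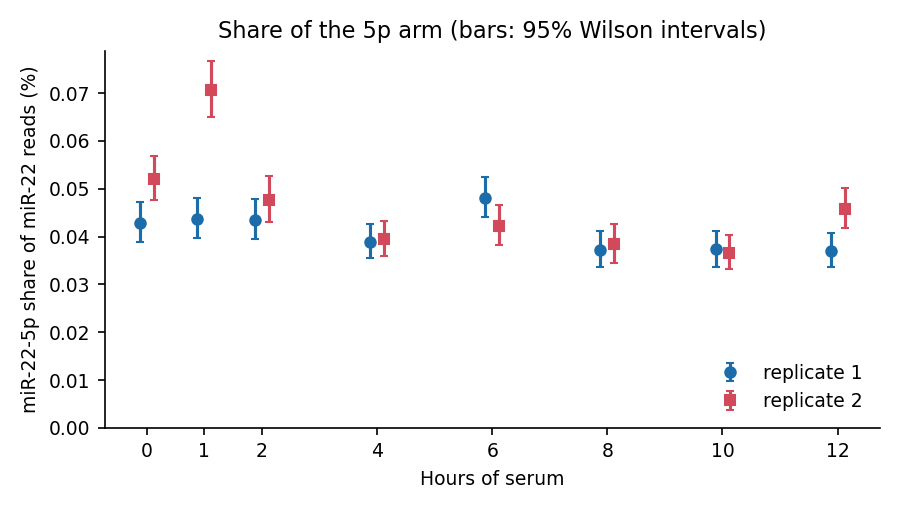
Share of miR-22-5p among all miR-22 reads (%) against hours of serum, 1 point per library with its 95% Wilson interval, replicate 1 in blue circles and replicate 2 in red squares. Most libraries lie between 0.0366% and 0.0520%, and 1 h replicate 2 lies above them at 0.0706%.

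miR-22-3p took a large part of every library. Its share of miRNA reads was 12.4% at the lowest, 15.0% at the median and 16.8% at the highest. Next by mean came miR-143-3p, a miRNA of smooth muscle and fibroblasts, with a median share of 13.9%. It was followed by miR-99b-5p with 9.17%, by miR-27b-3p with 8.15%, and by miR-21a-5p, which growth signals are known to induce, with 6.77%. miR-22-3p was the first-ranked miRNA in 11 of 16 libraries and miR-143-3p in the other 5, which were 0 h replicate 2 and all libraries of 1 and 2 h. The gap was widest in 10 h replicate 2, at 16.8% for miR-22-3p and 10.7% for miR-143-3p, and narrowest in 8 h replicate 1, at 14.7% and 14.6%. The label of most abundant miRNA therefore holds for the mean and from 4 h on, but not at 1 and 2 h.

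In the libraries of 10 and 12 h the miR-22-3p share was 15.5% and 16.8% at 10 h, then 15.98% and 15.0% at 12 h. It was 14.2% and 13.1% at 0 h, then 13.0% and 12.6% at 1 h. The late libraries averaged 15.8% ± 0.759 and the early ones 13.2% ± 0.672 (SD, n = 4 each), a difference of 2.59 points with no overlap. The exact 2-sided permutation test gave p = 0.0286, the smallest that its 70 splits allow (0.0857 adjusted over 3 values). The shares of 8.91% of all tested miRNAs were higher without overlap in this contrast, and those of 31% lay apart in either direction.

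**Figure D3:**
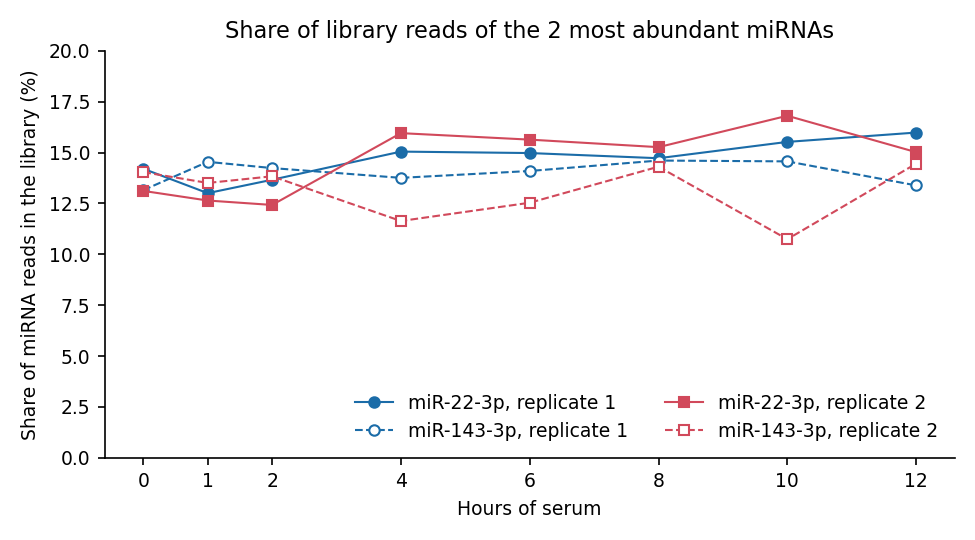
Share of miRNA reads (%) taken by miR-22-3p (filled symbols, solid lines) and miR-143-3p (open symbols, dashed lines) in each library against hours of serum, by replicate number. miR-22-3p lies above miR-143-3p in every library from 4 h on, and below it in all 4 libraries of 1 and 2 h.

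Because a single miRNA holds this much of a library, it weighs on the CPM of all others. Leaving the miR-22 reads out of the library totals raised the log2 CPM of every other miRNA by 0.191 to 0.266, depending on the library. Between times the effect was small. Set against 0 h it came to -0.01 at 1 h (-0.0139) and at 2 h (-0.0102). The later values were 0.031 (4 h), 0.028 (6 h), 0.022 (8 h), 0.042 (10 h) and 0.031 (12 h).

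At 12 h the calls on other miRNAs shifted little when the miR-22 reads were left out. On totals without miR-22 reads, 25 of 447 other miRNAs were called higher and 41 lower at 12 h, while on full totals 23 were called higher and 45 lower. Of the 66 and 68 calls, 64 were shared, which is 97.0% and 94.1% of them. The slope calls shifted more, mostly among falling miRNAs. For the slope, 38 were called higher and 84 lower without miR-22 reads, against 36 higher and 111 lower on full totals. TMM scaling moved the split further, to 36 higher and 27 lower at 12 h and 53 higher and 59 lower for the slope. The median of all tested miRNAs at 12 h was -0.12 without miR-22 reads and -0.15 on full totals, so the miR-22 reads made up a small part of its distance from 0.

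Almost every miR-22-3p read ended where the reference ends. Reads equal to the reference made up 96.7% to 97.4% of the arm's reads, with a median of 97.2%. Pooled over libraries the share was 97.1%, the highest of the 61 miRNAs that averaged 1000 CPM or more, whose median was 50.0%. Trimmed reads took 1.79% to 2.38% and rank 57th of these 61 in the pooled share. Reads extended at the 3' end by templated bases took 0.152% to 0.239%, and those extended by non-templated bases took 0.502% to 0.641%, rank 59. Classes were read from the table's own names, which do not say at which end a trimmed read was cut. The share of the reference form averaged 97.1% ± 0.295 in the 4 late libraries and 97.1% ± 0.206 in the 4 early ones (SD), a difference that did not pass (exact permutation p = 0.686), where 33.5% of miRNAs had reference-form shares that did not overlap.

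The few reads extended at the 5' end were mostly of 1 kind. Non-templated 5' extension took 0.0621% to 0.0690% of miR-22-3p reads, second highest of the 61 miRNAs in the pooled share. Of these reads 97.6% carried an added C, where the hairpin has A. The share hardly varied between libraries, with 0.0633% to 0.0690% in replicate 1 and 0.0621% to 0.0663% in replicate 2. Templated 5' extension was rarer, at 0.0050% to 0.0094% or 48 to 103 reads per library.

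miR-22-5p reads ended less uniformly. Trimmed reads outnumbered the reference form in this arm, with 55.7%, 63.9% and 70.8% of its reads at the lowest, the median and the highest library, against 26.3%, 33.7% and 40.2% for the reference form. Over all libraries 154 reads had a non-templated 3' extension, of which 107 were an added A. Only 37 were extended by templated bases at that end, and 1 was extended at the 5' end. Only the reference and trimmed shares had enough reads to test, and neither passed for any change (adjusted p = 0.420 and 0.372, limma) or for a slope (0.528 and 0.710).

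The 3' templated share of miR-22-3p stood apart at 6 and 8 h. In replicates 1 and 2 it was 0.176% and 0.183% at 0 h, 0.178% and 0.195% at 1 h, 0.199% and 0.202% at 2 h, and 0.165% in both at 4 h. The 6 h libraries then had 0.236% and 0.231% and those of 8 h had 0.238% and 0.239%, followed by 0.162% and 0.171% after 10 h of serum and 0.154% and 0.152% after 12 h. All 4 libraries of 6 and 8 h lay above the other 12, with a mean of 0.236% ± 0.003 (SD), against 0.175% ± 0.017 at all other times. The number of reads behind each value was 1528 to 2503. Reads with an added U would fall in this class as well, and their part in it was not tested.

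This share was tested for any change only after its values had been seen. The limma test on the log2 odds of the share gave an adjusted p of 0.00555 over 1514 pairs of a miRNA and a class, of which 8.06% were called. Leaving out single libraries gave adjusted p of 0.0109 to 0.0250. On the log2 odds scale the mean was 0.38 above 0 h at 6 h, 0.41 above at 8 h, and 0.23 below at 12 h (-0.23; adjusted p = 0.111, limma; 12.9% called, and adjusted p = 0.0354 with the replicate block; 25.8% called). The split of 6 and 8 h from all other times was likewise chosen after the values of this share had been seen. In 2 of the 1514 pairs (0.132%) all libraries of 6 and 8 h lay on one side of all others. The share described here is among them by that choice, so the count is a description and does not test how rare the pattern is. The other pair was the 3' non-templated share of miR-361-5p.

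The 3' non-templated share of miR-22-3p was higher late in the course. It averaged 0.610% ± 0.044 at 12 h, 0.603% ± 0.032 at 10 h and 0.574% ± 0.035 at 8 h, against 0.521% ± 0.020 at 0 h (SD, n = 2 each). Its slope was 0.021 ± 0.006 log2 odds per hour (adjusted p = 0.00977, limma; 30.5% of pairs called). Within replicate 1 the slope was 0.019 (adjusted p = 0.0555; 23.8% called) and within replicate 2 it was 0.023 (adjusted p = 0.0516; 23.4% called), so neither replicate number alone passed. Most of these reads (84.1%) carried an added A, and the A share alone had a slope of 0.020 that was not called (adjusted p = 0.392) but passed with the replicate block (adjusted p = 0.000754; 42% of pairs called). In the same direction, the mixed 3' additions had a slope of 0.025 (adjusted p = 0.0263), with 0.027 in replicate 1 (adjusted p = 0.0961) and 0.024 in replicate 2 (adjusted p = 0.230). The templated 5' extension had a slope of 0.035 (adjusted p = 0.0138), with 0.059 in replicate 1 (adjusted p = 0.0096) and 0.010 in replicate 2 (adjusted p = 0.553). At 12 h 0 of 11 classes of miR-22-3p were called against 0 h (2 had an unadjusted p under 0.05, limma), where 12.9% of all pairs were called. With the replicate block 3 of 11 were called, close to the 25.8% of all pairs: the A form (0.23, adjusted p = 0.0338), the whole 3' non-templated class (0.23, adjusted p = 0.0293) and the templated one given above.

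**Figure D4:**
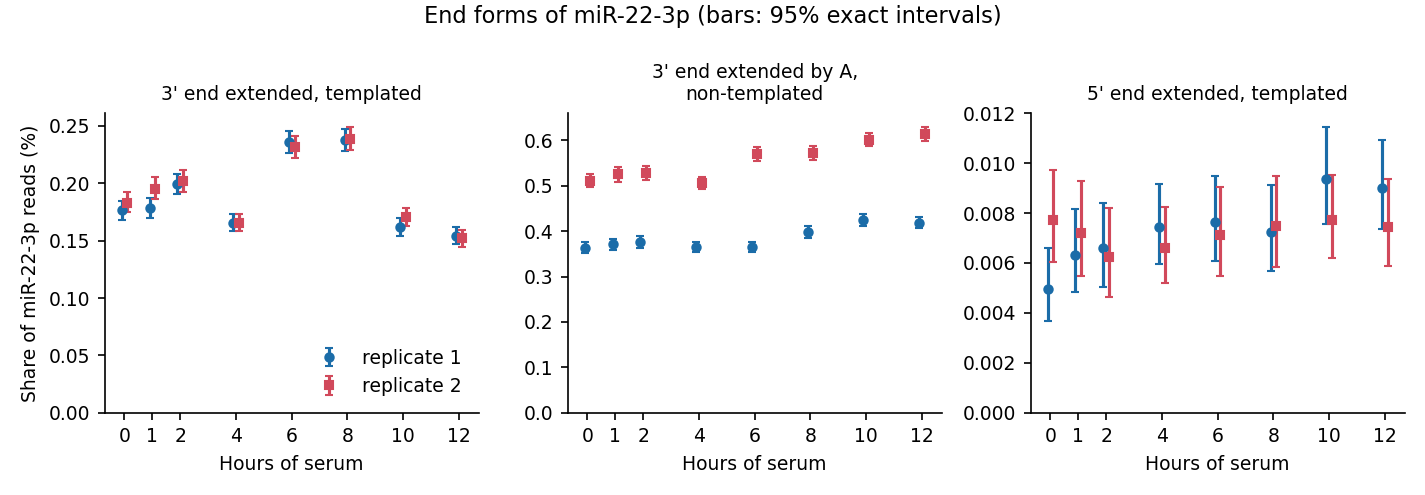
Shares of miR-22-3p reads (%) that were extended at the 3' end by templated bases (left), at the 3' end by an added A (middle) or at the 5' end by templated bases (right), against hours of serum. Points are single libraries with 95% exact binomial intervals; the left panel shows 6 and 8 h at 0.231% to 0.239%, and in the middle panel replicate 2 lies above replicate 1 at every time.

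Which base was added at the 3' end differed between the replicate numbers. An added C took 0.108% to 0.133% of miR-22-3p reads in replicate 1 (1021 to 1518 reads per library), and 0.00033% to 0.0023% in replicate 2 (3 to 23 reads). No library of one overlapped the other, which was so for 63.6% of the miRNAs with enough such reads. The pooled share was thus 84.4-fold higher in replicate 1 than in replicate 2. An added A took 0.506% to 0.613% in replicate 2, against 0.363% to 0.424% in replicate 1, again without overlap (27.4% of miRNAs). As a part of all non-templated 3' additions, A made up 95.8% in replicate 2 and 72.4% in replicate 1, and C made up 0.252% and 23.1%. Without the C reads the slope of the 3' non-templated share was 0.021 ± 0.016 (SE) and no longer called (adjusted p = 0.364, limma without a replicate block). With them it was 0.021 ± 0.006, so the slope kept its size and its error was wider.

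Many other miRNAs differed between the replicate numbers in the same direction in the added C. Replicate 2 minus replicate 1 was -6.51 ± 0.27 in the log2 odds of an added C for miR-22-3p (adjusted p = 2.49e-07, limma with time and replicate number, a comparison added after the values were seen). This was rank 3 from the largest fall among 66 miRNAs with enough such reads, of which 45 (68.2%) were lower in replicate 2 and 2 were higher there. Over all classes 31.2% of pairs were called between the replicate numbers. For miR-22-3p these included the A form (0.52, adjusted p = 4.04e-06), the trimmed class (0.27, adjusted p = 0.000442) and the reference form (-0.22, adjusted p = 0.000915). The A form was called higher in replicate 2 for 88 of 135 miRNAs and in replicate 1 for 1. The other classes had no common direction. Trimmed shares were called higher in replicate 2 for 35 miRNAs and in replicate 1 for 27, and reference-form shares for 24 and 19. Taken over all times, the levels of the 3p arm overlapped between the replicate numbers. Replicate 1 was the higher at 0, 1, 2 and 12 h, and replicate 2 at 4, 6, 8 and 10 h. A replicate difference in level was not tested.

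**Figure D5:**
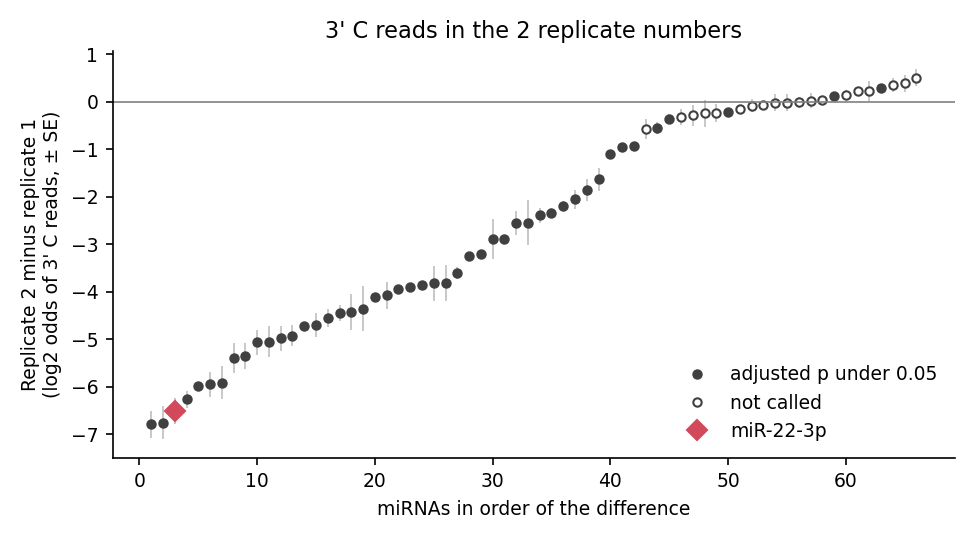
Replicate 2 minus replicate 1 in the log2 odds of reads with an added 3' C (± SE) for 66 miRNAs, in order of the difference. Filled circles were called at an adjusted p under 0.05; miR-22-3p (diamond) lies at rank 3 from the lower end, at -6.51, and 45 of the 66 were called below 0.

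Some other miRNAs had time courses much like that of miR-22-3p. Among the 265 others that averaged 10 CPM or more, likeness was taken as the smaller of the 2 correlations over 8 times, one within each replicate number, and it is a description of libraries that share their totals. The closest were miR-702-3p (0.949), miR-455-3p (0.942), miR-29a-3p (0.935), miR-92a-3p (0.906) and miR-221-5p (0.904). miR-455-3p had 42.3 CPM at 12 h, against 6.44 CPM at 0 h, a much larger change than that of miR-22-3p (log2 2.71 ± 0.32, adjusted p = 4.61e-05, edgeR). miR-29a-3p, of a family known to repress collagens, had 5510 CPM at 12 h, against 3493 CPM at 0 h (log2 0.66 ± 0.11, adjusted p = 0.00119). miR-92a-3p, of the growth-linked miR-17-92 cluster, had 31419 CPM at 12 h, against 22556 CPM at 0 h (log2 0.48 ± 0.13, adjusted p = 0.0193), a call lost on full library totals (0.32, adjusted p = 0.148) and without any 1 library of 0 or 12 h (0.44 to 0.55). For miR-22-5p the closest courses were far less alike, at 0.597 for miR-3074-2-3p, 0.579 for miR-27a-3p and 0.434 for miR-669a-3p.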

How the data were processed

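Small RNA libraries from 3T9 cells at 8 times of serum, 2 each, were compared. The authors' deposited values are raw counts of reads for each miRNA and end class, with 1 column per library, per the file headers. The submitters' processing notes name CASAVA 1.8.0. Aligner, annotation release, genome build and the treatment of multiply matching reads: not given in the sources used here. Of 6511 entries 1 duplicate was dropped. Added-base entries repeat reads of their parent class, so 8 classes were summed per miRNA, and 3 entries (7 reads) without a class suffix were left out.

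Levels were tested with edgeR 4.0.16 (quasi-likelihood, TMM factors 0.935 to 1.07, filterByExpr at a count of 10 or more, 449 of 1167 miRNAs kept, prior degrees of freedom 5.83, R 4.3.3). All 16 libraries entered 1 fit, with time as groups or as hours. Log2 arm ratios (0.5 reads added) and log2 odds of class shares (classes with a mean of at least 10 reads) were tested with limma 3.58.1. Benjamini-Hochberg adjustment ran over all features of a test, at 0.05. Late and early libraries were compared by exact permutation. Depth sets the counting error, which intervals cover alone, since reads carry no molecular identifiers. DESeq2 1.42.0, other scalings, filters and fits without single libraries were alternatives. The main edgeR and limma fits were tested on simulated data, for 12 h against 0 h and for the slope. Those data held no replicate difference. The blocked fits, the alternatives and the permutation tests were not tested in this way.

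Same-numbered libraries deviated together in all 28 pairs of times (correlations 0.134 to 0.602), so the replicate numbers, which per the design text are separate experiments, pair the libraries. The main fit has no block, and the blocked value is given where it changes a call. At each time the replicates were farther apart than counting noise allows (chi-square 31.7 to 171 per degree of freedom).

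Named miRNAs are the members, the next 4 by mean level and the 5 most alike to each arm (3 are given for miR-22-5p). A further list of miRNAs is not reported here. miR-361-5p was named after its values were seen, as were the hairpins with a more unequal pair of arms. The members, lists and tests were chosen with earlier results of these data known. RefSeq sequences (GRCm38.p6) matched 988 of 1167 miRNA names, and the gene features at the hairpin come from the GENCODE annotation of that build.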

Additional observations from a re-analysis of the deposited data

Results flagged for a closer look

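In the 4 libraries of 10 and 12 h, the miR-22-5p share of miR-22 reads in 12 h replicate 2 (0.0458%) lay far from the other 3 (0.0366% to 0.0373%). Its gap to the nearest of them was 0.926 of the range of the 4. Chance flags about 1 in 20 such groups.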

How the results depend on the processing

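The joint test and the slope of miR-22-3p kept their calls under every alternative run. For miR-22-3p at 12 h the difference was 0.18 on full library totals and 0.21 on totals without miR-22 reads, neither called, and 0.28 to 0.44 in fits without 1 library. Of the 6 other times and 2 arms, 2 comparisons with 0 h were called. That count was 0 on full totals, 1 on totals without miR-22 reads, 1 with DESeq2's size factors, its test or no low-count filter, and 0 to 3 without 1 library. The uncalled 2 h difference of miR-22-3p turned positive with DESeq2's size factors and test (0.024 in both), without a filter (0.043) and at a mean of 10 CPM or more (0.035), and ran from -0.061 to 0.13 without 1 library, where that of 1 h ran from -0.14 to 0.015.

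Uncalled values of miR-22-5p changed sign as well. On full totals the 12 h difference was -0.013, the 10 h difference -0.11 and the slope -0.0097, and on totals without miR-22 reads the 10 h difference was -0.069 and the slope -0.0057. The slope was -0.00049 within replicate 2, and -0.00071 to 0.013 without 1 library. With reference-form reads alone the difference was 0.027 at 2 h and 0.31 at 8 h. Without 1 library it was -0.13 to 0.47 at 1 h, -0.066 to 0.033 at 2 h, -0.10 to 0.065 at 4 h, -0.11 to 0.024 at 8 h and -0.011 to 0.10 at 10 h. The cause of these shifts was not tested.

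Of the 11 end classes of miR-22-3p, 0 were called at 12 h (12.9% of all pairs of a miRNA and a class), against 1 for classes with a mean of 100 reads or more and 3 with the replicate block (25.8% of pairs). Slopes were called for 3 classes (30.5% of pairs), against 1 within replicate 1 (23.8%), 0 within replicate 2 (23.4%) and 2 to 3 without 1 library, so the 3 slope calls are near the share of all pairs. For the filter at 100 reads and the fits without 1 library the share of all pairs called is not given here. The A form at 12 h ran from -0.042 to 0.51 without 1 library. Taking 8 and 10 h as late gave a difference of 2.34 points for the miR-22-3p share and -0.0149 points for the 5p share (exact permutation test, adjusted p = 0.0429 for both). Neither share could have passed alone after adjustment, so each call rested on the other. Against 1 and 2 h the reference-form share differed by 0.030 points, and without 1 library it differed by -0.16 to 0.031 points. With labels permuted within replicate numbers (replicate block) the smallest possible p was 0.0556, and without 1 library 0.0571, so neither could pass.

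Over all miRNAs, 62 were called for any change, against 101 without a filter, 39 at 10 CPM or more, 110 with the replicate block and 36 to 60 without 1 library. At 12 h 64 were called, against 108 with the block and 37 to 65 without 1 library. For the slope 113 were called, against 59 without the 0 h libraries and 60 within replicate 2. The replicate block changed no other call on the arms' levels or ratio. Depth limited miR-22-5p, whose 5' forms and 3' extensions had too few reads to test.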
